A study of Mus musculus with 10 samples.

Results

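The 10 genes described here belong to the BCL2 family, which sets the threshold for apoptosis at the outer mitochondrial membrane. They were taken as a named list (Bax, Bak1, Bid, Bad, Bcl2, Bcl2l1, Bcl2l11, Mcl1, Bbc3 and Pmaip1), matched by Ensembl identifier and mouse symbol, and all 10 were found among the 22053 genes of the deposited table. RNA-seq gave their mRNA levels in glomeruli, the filtering tufts of the kidney, from mice labelled Col4a3 wild-type (5 libraries) and of mice labelled Col4a3 p.G799R (5 libraries), a missense change in the alpha 3 chain of type IV collagen. No treatment is given for either group. Zygosity, strain, age, sex and the glomerular isolation method are likewise not stated in the labels. Nor do they tie each library to its own mouse, and the p-values therefore speak of library-to-library spread, part of which may be technical.

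In this family, BAX and BAK form pores in the mitochondrial membrane and release cytochrome c, which activates the caspases that dismantle the cell. BCL2, BCL-XL (from Bcl2l1) and MCL1 hold the pore formers in check. BH3-only proteins, among them BID, BAD, BIM (from Bcl2l11), PUMA (from Bbc3) and NOXA (from Pmaip1), carry death signals to both. Much of this control acts on the proteins, by cleavage, phosphorylation and turnover, and mRNA levels do not measure it.

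All values are FPKM, fragments scaled for transcript length and library total, so levels can be set beside each other between genes. A gene was called higher or lower when the limma test on log2(FPKM + 1) over the 13117 genes that averaged 0.5 FPKM or more gave an adjusted p under 0.05. Of the 10 family genes, all of which passed that filter, 7 were called higher in G799R and 1 lower. Among all tested genes 40.5% were called higher and 19.3% lower, 59.8% in either direction, so calls were common and 8 of 10 is not far above that share. The FPKM sums of the libraries lay between 320720 and 340875. The podocyte marker Podxl was abundant (a mean of 1301 FPKM in wild type), but the makeup of the libraries differed by group. All 18 proximal tubule markers were called lower in G799R, with summed levels of 7494 to 14372 FPKM in wild type and 887 to 2498 FPKM in G799R, as were 15 of 16 distal nephron markers (1402 to 2036 against 184 to 551 FPKM). All 18 podocyte markers (3547 to 4230 against 5966 to 7881 FPKM), 14 of 18 glomerular endothelial markers (2145 to 3798 against 4026 to 5506 FPKM), 11 of 15 mesangial markers (747 to 1305 against 1657 to 2335 FPKM) and 8 of 15 macrophage markers (65.2 to 151 against 165 to 285 FPKM) were called higher. Of these lists, 0 markers were at 0 in every library. In bulk libraries, fewer cells of a type and less RNA per cell cannot be told apart. G799R libraries 3 and 4 stood apart in interferon response genes, whose geometric mean was 155 and 108 FPKM there and 15.7 to 41.9 FPKM in the other 3 G799R libraries.

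RefSeq promoter windows on GRCm38.p6, from 250 bases before to 50 after a start site, were found for 9 of the 10 genes (15 windows). The stretches before the start are shown for Bid, the family gene called lower, and for Bax, the pore former with a match to a p53 half-site, which is in capitals. Both are written 5′ to 3′ along the gene.
Bid, chr6:120916825-120917074, minus strand: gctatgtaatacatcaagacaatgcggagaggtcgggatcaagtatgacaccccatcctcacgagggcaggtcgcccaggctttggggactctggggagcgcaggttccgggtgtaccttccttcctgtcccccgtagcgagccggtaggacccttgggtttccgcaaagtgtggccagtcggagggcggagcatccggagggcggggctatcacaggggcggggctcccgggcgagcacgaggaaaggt
Bax, chr7:45466899-45467148, minus strand: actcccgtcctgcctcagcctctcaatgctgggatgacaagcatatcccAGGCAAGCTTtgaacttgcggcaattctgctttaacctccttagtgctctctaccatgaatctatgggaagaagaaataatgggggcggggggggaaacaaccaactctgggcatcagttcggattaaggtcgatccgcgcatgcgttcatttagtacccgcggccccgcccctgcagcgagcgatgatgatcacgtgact
The windows were searched on both strands for 7 motifs: the p53 half-site, the interferon-stimulated response element (GAAA, any 2 bases, GAAA), the STAT site TTCNNNGAA, the ATF4 and CHOP composite element TGATGNAA, the NF-kappaB site, the HNF1 site (GTTAAT, any base, ATT) and the HNF4 site CAAAGTCCA. The Bid window held none of these letters. The Bax window held 1 p53 half-site, at position −201 from the start, a motif found in 8.36% of the 32851 promoter windows of this length. An NF-kappaB site, found in 8.46% of all windows, was matched in 1 of the windows of Bcl2l1 (position −242) and in 1 of Bbc3 (position −137, with an overlapping match on the other strand). The remaining family windows held no match. The GC content of the Bid window was 63.3% and that of the Bax window 57.3%, against a median of 52.7% over all windows.

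Both pore formers were called higher in G799R as deposited. Bax (ENSMUSG00000003873, chromosome 7, 45461697 to 45466898, GRCm38) stood at 24.8, 17.7, 18.4, 15.9 and 17.3 FPKM in wild-type libraries 1 to 5 and at 28.0, 31.6, 20.5, 32.5 and 32.9 FPKM in G799R libraries 1 to 5. Wild-type library 1 was the highest of its group and G799R library 3 the lowest of its own, and these are the libraries through which the groups overlapped; the other 4 G799R libraries lay above every wild-type library. The mean was 29.1 ± 5.18 FPKM in G799R against 18.8 ± 3.45 in wild type (SD, n = 5 each), 1.55-fold higher, with a log2 difference of 0.60 ± 0.14 (SE) and a limma adjusted p of 0.00404. Bak1 (ENSMUSG00000057789, chromosome 17, 27019810 to 27029009) stood at 10.3, 8.19, 8.04, 7.95 and 9.04 FPKM in wild type and at 15.6, 15.4, 14.5, 11.6 and 11.3 FPKM in G799R. Every G799R library lay above every wild-type library, and libraries 4 and 5 were the lowest of the 5. The log2 difference of Bak1 was 0.59 ± 0.11 (SE; limma adjusted p = 0.000856), a 1.57-fold rise. Of the exonic bases of Bak1, 25.5% overlap Ggnbp1 on the opposite strand, whose own value was called lower. The strand setting of the authors' counting is not stated, so reads of overlapping genes may not have been told apart. Bax shares 12.2% of its exonic bases with Gm45808 on the same strand, which was at 1.87 FPKM in G799R library 2 and at most 0.523 FPKM elsewhere, and Bcl2 shares 6.09% with D630008O14Rik on the opposite strand.

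The 3 anti-apoptotic genes were also called higher, by 1.26-fold to 1.32-fold. Mcl1 (ENSMUSG00000038612, chromosome 3, 95658788 to 95663176), whose protein is short-lived and kept up by steady transcription, was the most abundant family gene. Its values were 76.6, 64.0, 69.9, 62.9 and 63.7 FPKM in wild type and 92.0, 92.7, 81.1, 77.4 and 102 FPKM in G799R. The groups did not overlap, although the lowest G799R library, library 4, was within 1 FPKM of wild-type library 1. The log2 difference of Mcl1 was 0.39 ± 0.09 (SE; limma adjusted p = 0.00263), or 1.32-fold. Bcl2l1 (ENSMUSG00000007659, chromosome 2, 152780668 to 152831728) ran at 52.9, 40.5, 45.4, 42.3 and 39.8 FPKM in wild type and at 45.4, 63.1, 53.5, 63.6 and 66.1 FPKM in G799R. G799R library 1 lay inside the wild-type range and the other 4 lay above it. Its log2 difference was 0.39 ± 0.11 (SE; limma adjusted p = 0.0118), or 1.32-fold. Bcl2 itself (ENSMUSG00000057329, chromosome 1, 106538178 to 106714274) was low, at 5.10, 5.15, 5.90, 4.03 and 4.92 FPKM in wild type and 6.10, 6.37, 6.72, 5.87 and 6.46 FPKM in G799R. The groups met at G799R library 4, which was just under wild-type library 3. The log2 difference of Bcl2 was 0.28 ± 0.09 (SE; limma adjusted p = 0.0173), or 1.26-fold.

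**Figure D1:**
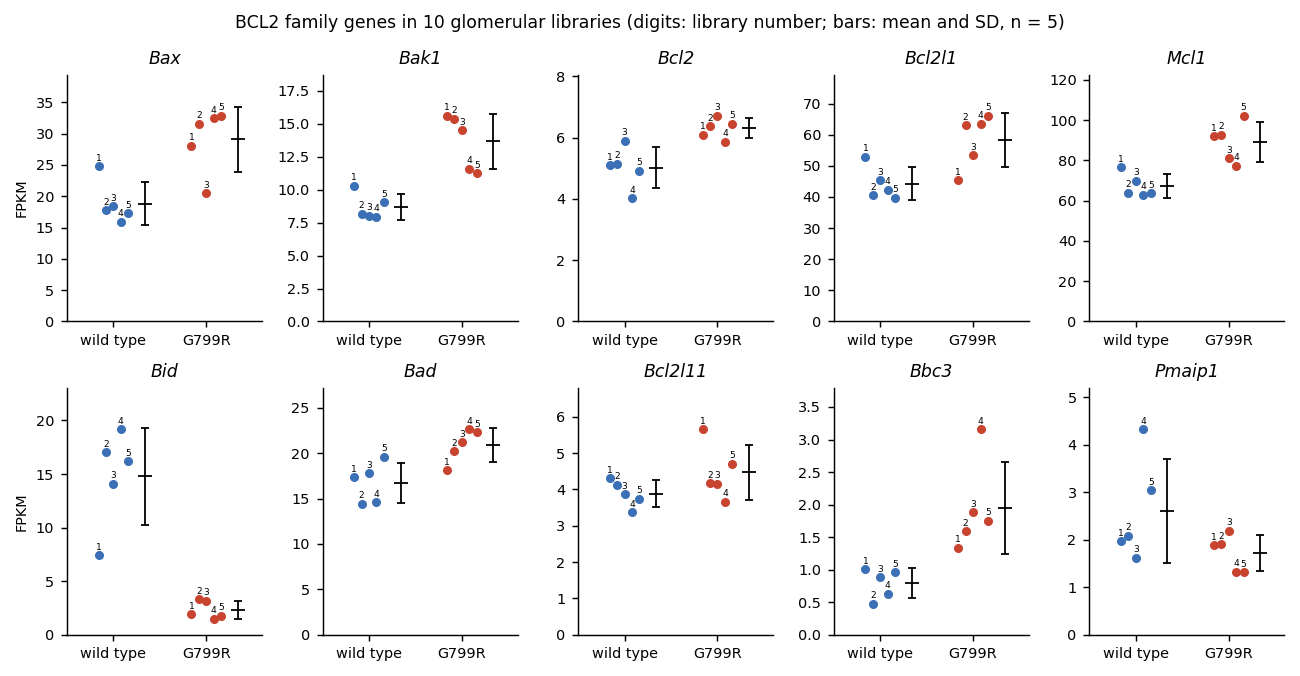
FPKM of the 10 BCL2 family genes (vertical axes, each from 0) in the 5 wild-type (blue) and 5 G799R (red) libraries, with the library number beside each point and the mean and SD at the right of each group. Bid drops from 14.8 to 2.33 FPKM on average, while Bak1, Mcl1 and Bbc3 lie wholly above their wild-type values.

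Of the 5 BH3-only genes, 2 were called higher, 1 was called lower and 2 were not called. This mix is near the shares of all tested genes, 40.5% higher and 19.3% lower. Bid (ENSMUSG00000004446, chromosome 6, 120891930 to 120916853) encodes the protein that caspase-8 cleaves to link death receptors to mitochondria. It stood at 7.42, 17.1, 14.1, 19.2 and 16.2 FPKM in wild-type libraries 1 to 5 and at 1.90, 3.34, 3.17, 1.495 and 1.765 FPKM in G799R libraries 1 to 5. Wild-type library 1 was the lowest of its group, and every G799R library was below it. Bid fell 6.34-fold, from 14.8 ± 4.51 to 2.33 ± 0.856 FPKM (SD, n = 5 each), with a log2 difference of −2.22 ± 0.24 (SE) and a limma adjusted p of 2.1e-05. Of all 13117 tested genes, 240 (1.83%) had a more negative difference on this scale, where the added 1 FPKM makes that of Bid smaller. Of the exonic bases of Bid, 17.7% overlap Bcl2l13 on the opposite strand, itself a BCL2 relative, which ran from 8.16 to 18.9 FPKM in wild type and from 7.16 to 19.9 FPKM in G799R and was not called.

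Bbc3 (ENSMUSG00000002083, chromosome 7, 16308393 to 16318205), a target of p53, had the largest rise of the family by fold, from a low level. Its values were 1.01, 0.474, 0.885, 0.632 and 0.962 FPKM in wild type and 1.34, 1.59, 1.88, 3.16 and 1.75 FPKM in G799R. The groups did not overlap, and G799R library 4 was the highest. The mean was 2.45-fold higher, with a log2 difference of 0.70 ± 0.16 (SE; limma adjusted p = 0.00308), which the added 1 FPKM makes smaller for a gene this low. Bad (ENSMUSG00000024959, chromosome 19, 6941861 to 6951899), whose protein is held inactive by survival kinases, stood at 17.4, 14.4, 17.8, 14.6 and 19.6 FPKM in wild type and 18.1, 20.2, 21.2, 22.7 and 22.3 FPKM in G799R. G799R library 1 fell within the wild-type range. Bad had a log2 difference of 0.31 ± 0.09 (SE; limma adjusted p = 0.0154), or 1.25-fold, and shares 20.5% of its exonic bases with Gpr137 on the opposite strand.

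Bcl2l11 and Pmaip1 were not called. Bcl2l11 (ENSMUSG00000027381, chromosome 2, 128126038 to 128162547) had values of 4.32, 4.13, 3.88, 3.37 and 3.75 FPKM in wild type and 5.66, 4.17, 4.16, 3.67 and 4.71 FPKM in G799R. The groups overlapped, and the log2 difference of 0.16 ± 0.11 (SE) had a 95% interval of −0.07 to 0.39 and a limma adjusted p of 0.22. Pmaip1 (ENSMUSG00000024521, chromosome 18, 66458533 to 66465565) had values of 1.97, 2.09, 1.62, 4.33 and 3.05 FPKM in wild type and 1.88, 1.91, 2.19, 1.33 and 1.31 FPKM in G799R. Wild-type library 4 was the highest and the groups overlapped. The log2 difference of −0.37 ± 0.19 (SE) had a 95% interval of −0.78 to 0.04 and a limma adjusted p of 0.11. Without wild-type library 3, Pmaip1 was called lower (log2 difference −0.47, limma adjusted p = 0.0480).

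Over the family, the groups did not overlap for 3 genes that were higher and 1 that was lower, where 26.1% and 15.7% of all tested genes had such higher and lower groups (41.8% either way). The median log2 difference of the 10 genes was 0.35, against 0.17 over all tested genes, and 7 of the 10 lay above that median.

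The order of levels was the same in both groups apart from Bid and an exchange of Pmaip1 and Bbc3 at the bottom. In wild type Mcl1 (67.4 FPKM) was followed by Bcl2l1 (44.2), Bax (18.8), Bad (16.8), Bid (14.8), Bak1 (8.71), Bcl2 (5.02), Bcl2l11 (3.89), Pmaip1 (2.61) and Bbc3 (0.793). Ranges of neighbours overlapped for Bax with Bad, Bad with Bid, Bid with Bak1, Bcl2 with Bcl2l11 and Bcl2l11 with Pmaip1. Within single wild-type libraries, Bcl2 was above Bcl2l11 in all 5 and Bad above Bid in 3. The other overlapping pairs kept their order in 4 libraries, so apart from Bcl2 over Bcl2l11 these places were not the same in every library. In G799R Bid stood 8th, at a level that overlapped Bbc3 (1.95 FPKM), which in turn overlapped Pmaip1 (1.72 FPKM). Mcl1 was 1.53 times the level of Bcl2l1 in each group. The BH3-only genes made up 15.9% to 24.4% of the summed FPKM of the family in wild type and 12.7% to 15.6% in G799R. For the anti-apoptotic genes the shares were 60.8% to 66.7% and 65.8% to 69.7%. Those of the pore formers were 13.6% to 17.4% and 16.8% to 20.2%. The sum includes Bid, so the fall of Bid by itself raises the shares of the other genes. The 9 genes without Bid made up 89.0% to 96.3% of the sum in wild type and 98.5% to 99.3% in G799R. On average these 9 genes summed to 168 FPKM in wild type and 226 FPKM in G799R. Within these sums the anti-apoptotic genes made up 117 and 154 FPKM, and the pore formers 27.5 and 42.8 FPKM. Shares of a sum without Bid were not compared by library.

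FPKM is a share of each library, and the rises depended on the scaling between libraries while the fall of Bid did not. Under median-of-ratios scaling, which moved the median of all genes to 0.02, 4 family genes were called higher (Bax, Bak1, Mcl1 and Bbc3) and 1 lower, where 23.3% and 25.5% of all genes were called (48.8% together). Under quantile normalisation 6 were called higher and 1 lower, with 35.5% and 20.8% of all genes (56.3% together), and Bad was not called. Calls that were higher made up 67.7% of all calls as deposited, 47.8% under median-of-ratios scaling, 63.0% under quantile normalisation and 6.19% when libraries were instead set equal on the geometric mean of 51 podocyte, endothelial and mesangial markers. With these glomerular markers set equal, which moved the median of all genes to −0.41, 0 family genes were called higher by limma (1, Bbc3, at an unadjusted p under 0.05) and 6 were called lower, where 4.19% and 63.4% of all genes were called (67.6% together). The 6 were Bid, Pmaip1, Bcl2l11, Bad, Bcl2 and Mcl1. Bax and Bak1 then had log2 differences of −0.050 and −0.029 (limma adjusted p = 0.74 and 0.85), Bbc3 of 0.33 (adjusted p = 0.0585), and Bid of −2.77 (adjusted p = 1.1e-05). Under each of the scalings, 7 or 8 of the 10 genes lay above the median of all genes. 

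The balance of pore formers to anti-apoptotic genes within a library does not depend on scaling, and was compared as 6 ratios of FPKM values, which share numerators and denominators. The Bax to Bcl2 ratio was 4.86, 3.45, 3.12, 3.96 and 3.51 in wild type and 4.60, 4.96, 3.05, 5.53 and 5.09 in G799R. The groups overlapped at both ends, since wild-type library 1 was high and G799R library 3 was the lowest of all 10. Its log2 difference was 0.29 ± 0.19 (SE), a ratio 1.22-fold higher, with an exact two-sided permutation p of 0.16 (0.19 adjusted over the 6 ratios). The Bak1 to Bcl2 ratio was 2.02, 1.59, 1.36, 1.97 and 1.84 in wild type and 2.56, 2.41, 2.16, 1.98 and 1.74 in G799R. There 3 G799R libraries lay above every wild-type library, with a log2 difference of 0.31 ± 0.15 (SE; exact permutation p = 0.0714, adjusted 0.19). The remaining 4 ratios had log2 differences of 0.23 to 0.25. All 6 estimates were positive, none passed the test (0 at an unadjusted p under 0.05), and the smallest p that 5 against 5 libraries allow is 0.0079. Bak1 to Bcl2l1 was the least precise, at 0.25 ± 0.20 (SE; exact permutation p = 0.25). A shift of the pore formers against their inhibitors was therefore not resolved from the spread between libraries.

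**Figure D2:**
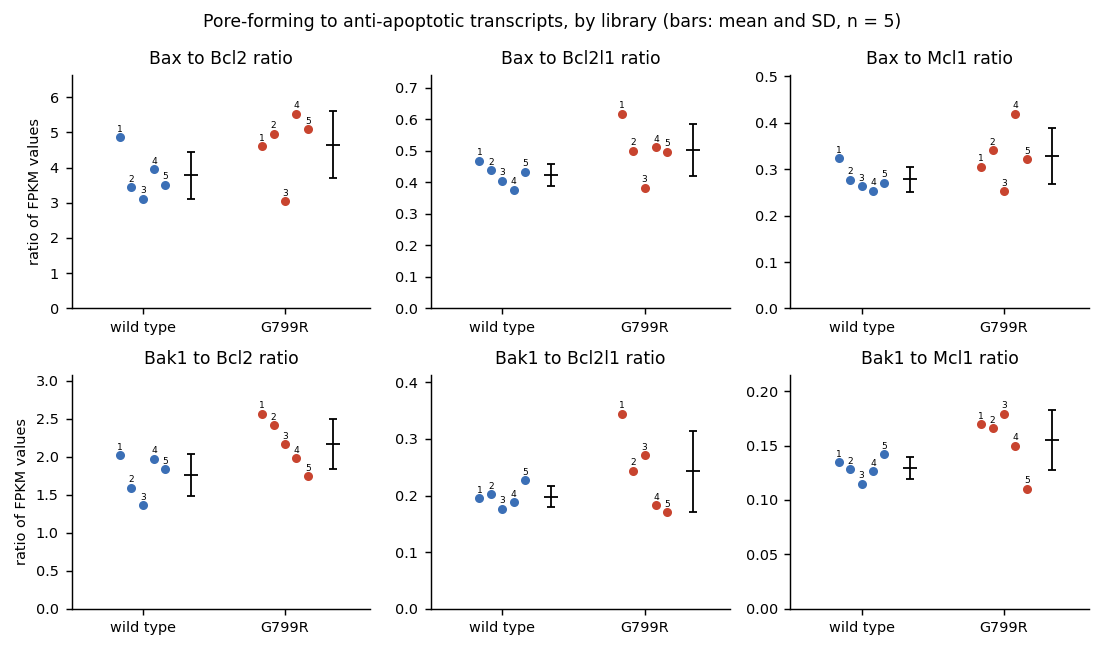
Ratios of FPKM of Bax (top) and Bak1 (bottom) to Bcl2, Bcl2l1 and Mcl1 in each library, wild type in blue and G799R in red, with the mean and SD of each group (n = 5). The groups overlap in all 6 panels, and the mean Bax to Bcl2 ratio is 3.78 in wild type and 4.65 in G799R.

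The level of Bid was set beside the tubule markers, since both were lower in the same libraries. The geometric mean of the 18 proximal tubule markers was 190, 284, 209, 333 and 254 FPKM in wild-type libraries 1 to 5 and 42.1, 40.3, 34.7, 27.6 and 17.9 FPKM in G799R libraries 1 to 5. Wild-type libraries 1 and 4 were the lowest and the highest of their group in both these markers and Bid. In G799R the orders differed, with the markers highest in library 1 and lowest in library 5, and Bid highest in library 2 and lowest in library 4. Over the groups the proximal tubule mean was 7.81-fold lower, the mean of the 16 distal nephron markers (distal tubule, collecting duct) 4.67-fold lower, and Bid 6.34-fold lower. The ratio of Bid to the proximal tubule mean was 0.0391, 0.0601, 0.0673, 0.0577 and 0.0637 in wild type and 0.0450, 0.0831, 0.0912, 0.0541 and 0.0985 in G799R, so the groups overlapped, with a G799R mean 1.29 times that of wild type. The ratio of Bid to the distal mean went the other way, with group means of 0.409 ± 0.0986 for wild type and 0.335 ± 0.127 for G799R (SD over 5 libraries), also with overlap; neither ratio was tested. On the log2(FPKM + 1) scale, 17 of the 18 proximal markers and 3 of the 16 distal markers had a more negative difference than Bid. The part of the tubule RNA in the difference of Bid was not tested.

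**Figure D3:**
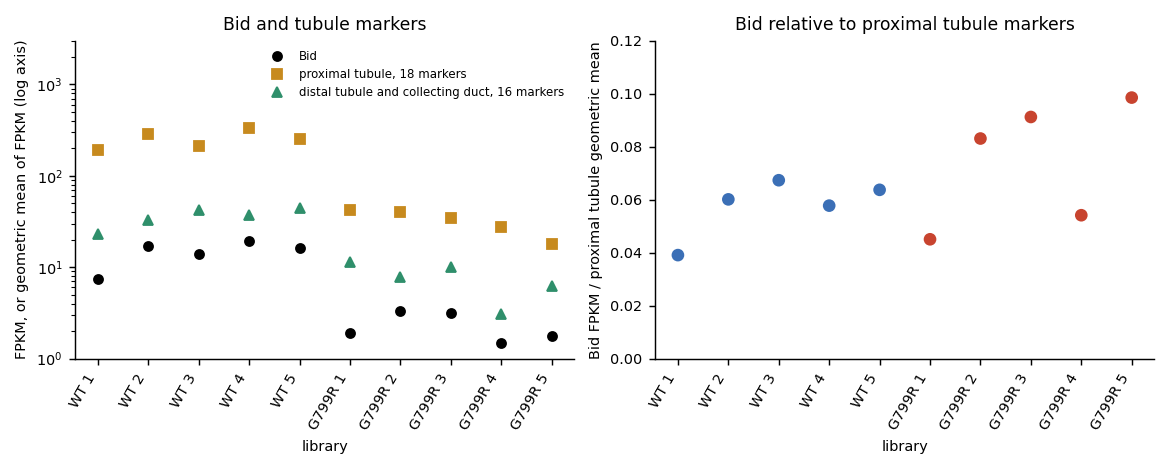
Left, FPKM of Bid and the geometric mean FPKM of 18 proximal tubule markers and 16 distal nephron markers in each library (log axis); right, Bid divided by the proximal tubule mean, wild type in blue and G799R in red. All 3 levels are lower in G799R, and the ratio runs from 0.0391 to 0.0673 in wild type and from 0.0450 to 0.0985 in G799R.

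Without G799R libraries 3 and 4, 5 family genes were called higher and 1 lower, where 37.1% of all tested genes were called higher and 17.2% lower (54.3% together). Bad and Bcl2 were then no longer called, with log2 differences of 0.26 and 0.29 (limma adjusted p = 0.0808 and 0.0502) close to those over all 10 libraries.

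The genes whose levels over the 10 libraries followed a family gene most closely were named by Pearson correlation of log2(FPKM + 1), as a measure of likeness only, since the libraries form 2 groups. For Bax these were Pnn (0.99), Cxxc1 (0.97), Snrnp70 (0.97) and Maz (0.97), genes of splicing and of transcription at GC-rich promoters. For Bcl2 they were Zfp609, Golga3, Add2 and Dcaf7 (each 0.98), and for Mcl1 Rxrb, Plppr3 and Zfp865 (each 0.98) and Abi1 (0.97). For Bid, added after its values were seen, they were Hacd2 (0.996), Dnaja3 (0.99), Rab11fip4 (0.99) and Abcc2 (0.99), the last an export pump for organic anions in the proximal tubule that fell from 15.8 to 2.43 FPKM. Within the groups, the correlation of deviations from the group means was 0.91 to 0.98 for these pairs. Predicted genes and genes with only a clone, Rik or Ensembl name were left out. The named genes are the closest of the rest of the 13117 genes, over few libraries.

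Of 19 further BCL2 relatives 15 were tested, and 5 were called higher (Bcl2l2, Bcl2a1a, Bcl2a1d, Bmf and Bcl2l12) and 3 lower (Bnip3, Bag1 and Tmbim6), shares close to the 40.5% and 19.3% of all tested genes, with the same median log2 difference, 0.17. Bcl2l2, which encodes the anti-apoptotic BCL-W, rose 1.35-fold (36.9 ± 4.61 to 49.8 ± 2.39 FPKM, limma adjusted p = 0.00123). Bnip3, a BH3-like protein of the mitochondrial membrane that directs mitochondria to autophagy, fell 2.15-fold (47.8 ± 6.99 to 22.2 ± 4.85 FPKM, adjusted p = 7.4e-05). Tmbim6, which encodes BAX inhibitor 1 of the endoplasmic reticulum, fell 1.55-fold to 251 FPKM, and Bag1, a co-chaperone that binds BCL2, fell 1.21-fold. With glomerular markers set equal, 1 relative was called higher and 8 lower, where 4.19% and 63.4% of all genes were called. Bcl2l2 then turned to −0.23, above the median of all genes, −0.41.

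Downstream of the pores, 8 of 22 effector genes were called higher and 5 lower, with a median of 0.12, again close to the shares of all tested genes. The 5 that fell were Cycs, which encodes cytochrome c, the caspase activator that pores release (2.51-fold), Aifm1, a flavoprotein that supports respiratory complex I (2.202-fold), the channel gene Vdac1 (1.55-fold), the nuclease gene Endog and Mtch2, which encodes the membrane receptor of cleaved BID. Among the 8 that rose was Birc2, a ubiquitin ligase that inhibits death signalling, at 14.9 ± 0.780 and 21.8 ± 1.89 FPKM (1.47-fold, limma adjusted p = 1.1e-04). With glomerular markers set equal, 0 effectors were called higher by limma and 15 lower, where 63.4% of all genes were called lower.

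Upstream, of 10 tested genes of the death receptor route that ends in cleavage of BID, 7 were called higher and 0 lower by limma (0 lower at an unadjusted p under 0.05), with a median of 0.46, where 40.5% and 19.3% of all tested genes were called. Fadd, Tradd and Tnf, with log2 differences of 0.16, 0.0063 and 0.54, were not called. Casp8, whose protein cleaves BID, rose 1.55-fold (22.4 ± 3.58 to 34.7 ± 2.98 FPKM, adjusted p = 5.1e-04), the receptor gene Tnfrsf1a had a log2 difference of 1.21, and Cflar and Ripk1, which restrain and relay this signal, had log2 differences of 0.38 and 0.36. Under median-of-ratios scaling 4 of the 10 were called higher and 0 lower, where 23.3% and 25.5% of all genes were called. With glomerular markers set equal 1 was called higher and 5 lower, where 4.19% and 63.4% of all genes were called.

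Of 13 tested transcription factors listed for BH3-only genes, 9 were called higher and 0 lower by limma (0 lower at an unadjusted p under 0.05). These calls stand beside the same 40.5% and 19.3% of all tested genes, and the list median was 0.63. The listed factors do not act on BH3-only genes alone. NF-kappaB, of which Rela encodes a part, also induces the anti-apoptotic A1 genes. Trp53, which encodes p53, rose 1.58-fold (18.3 ± 2.75 to 28.9 ± 5.09 FPKM, adjusted p = 0.00145), without overlap between the groups. Stat3, Irf1, Rela and Atf3, factors of cytokine, interferon, NF-kappaB and stress signalling, had log2 differences of 0.86, 1.63, 0.72 and 0.89. Of 16 targets of p53 other than the family genes, 9 were called higher and 3 lower, with a median of 0.30. The shares of all tested genes were again 40.5% and 19.3%. Cdkn1a and Gadd45a, which halt the cell cycle, had log2 differences of 1.53 and 1.64, while Perp, a membrane protein of apoptosis and cell adhesion, fell 3.07-fold and Sesn2, a stress sensor, 1.81-fold. With glomerular markers set equal, 1 of the 13 factors was called higher and 4 lower, with Trp53 at −0.021. Of the 16 targets 2 were then called higher and 7 lower, where 4.19% and 63.4% of all genes were called. The lower tubule markers accompanied all of these lists in the same G799R libraries, and their part was not tested.

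**Figure D4:**
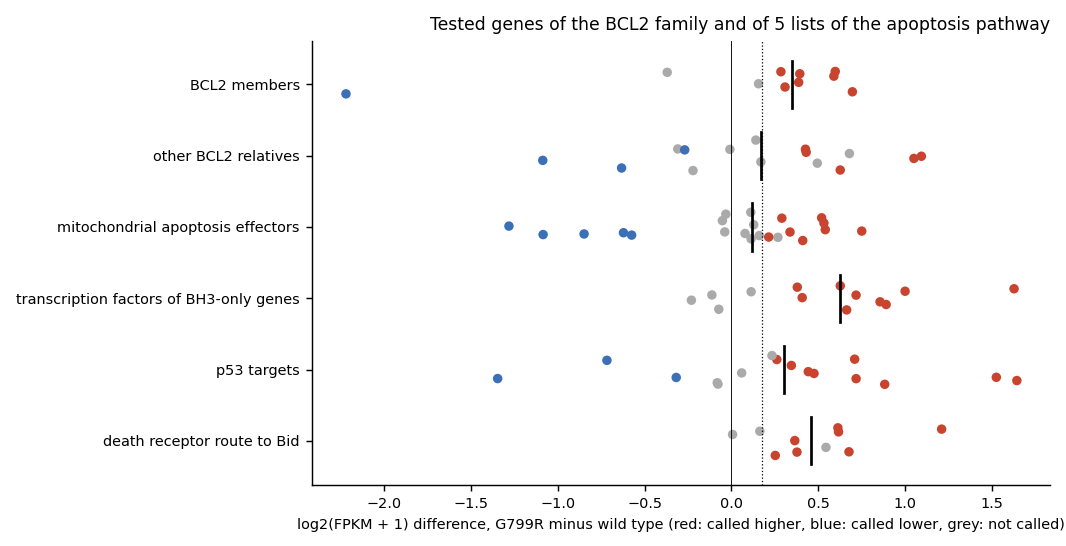
Log2(FPKM + 1) differences, G799R minus wild type (horizontal axis), of each tested gene of the BCL2 family and of 5 lists of the apoptosis pathway, red where called higher, blue where called lower and grey where not called. Black bars are list medians and the dotted line is the median of all tested genes, 0.17; Bid lies far left of every other gene shown.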

How the data were processed

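The authors deposited 1 table of FPKM values, with 1 column per library. The tools named in the submitters' processing notes, without role or order, are RSEM, StringTie 1.3.1, HISAT2, Bowtie2 2.2.8 and fastp 0.18.0. Neither genome build nor annotation is given in the sources used here. Each column was matched to its library by the name in that library's label. Symbols were found for 21963 of 22053 identifiers, and positions are from GENCODE M21 on GRCm38, which may differ from the authors' build.

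FPKM was used as deposited. Low values gave relative depths of 0.86 to 1.19 times wild-type library 1, with 4.52% to 6.39% of low genes at the commonest ratio, so these are estimates, and absolute depth is unknown. Genes that averaged 0.5 FPKM or more entered limma 3.58.1 (R 4.3.3, trend, two-sided) on log2(FPKM + 1), with Benjamini-Hochberg adjustment over 13117 genes. Folds are ratios of mean FPKM. Ratios were tested with an exact permutation test over libraries.

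The members, the lists, the scalings and the libraries left out were chosen with earlier results of these data known. Named by rule were all 10 members, up to 4 genes of each list by smallest p, Trp53 and the 4 genes most like Bax, Bcl2 and Mcl1. Endog, Mtch2, Ggnbp1, Bcl2l13, Gpr137, Gm45808, D630008O14Rik, Fadd, Tradd, Bcl2a1a, Bcl2a1b, Bcl2a1d, Bmf, Bok, Tnf and the genes like Bid were chosen after their values were seen. A gene fixed for naming is not reported here. Alternatives were other pseudocounts, filters and scalings, robust limma, a replicate block and leaving out libraries.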

Additional observations from a re-analysis of the deposited data

How the results depend on the processing

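Bid kept its direction and its call under all 20 alternatives, with log2 differences of −2.77 to −2.12. The count of family genes called higher was 7 whichever library was left out. That of genes called lower was 1 to 2, the second being Pmaip1 without wild-type library 3. In these fits 35.2% to 42.5% of all tested genes were called higher and 18.3% to 19.7% lower. Median-of-ratios scaling gave 4 family genes higher and, over all tested genes, 3057 higher. Glomerular marker scaling gave 0 family genes higher and 6 lower (1 higher and 7 lower at an unadjusted p under 0.05), and 549 and 8317 of all genes, against 5308 and 2537 as deposited. Under it these differences turned negative: Bax −0.050, Bak1 −0.029, Bad −0.33, Bcl2 −0.29, Bcl2l1 −0.28, Mcl1 −0.27, Bcl2l11 −0.39, Bcl2l2 −0.23, Birc2 −0.12, Casp8 −0.036, Cflar −0.29, Ripk1 −0.28 and Trp53 −0.021; that scaling lowers G799R values by its construction. Bad was not called under quantile normalisation (0.22, limma adjusted p = 0.0538). With a mean of at least 2 FPKM, 11333 genes were tested, and 43.1% were called higher and 19.1% lower. Bbc3 was not tested there, and 6 family genes were called higher. Of the further relatives 3, not 5, were called higher, since Bcl2a1a and Bcl2a1d averaged under 2 FPKM and were not tested.

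With the replicate number as a block, 7 family genes were called higher and 1 lower, with 4937 and 2451 of all 13117 genes. Same-numbered libraries share only a number: their deviations correlated between −0.085 and 0.048, and 0 of 5 correlated best with their own number. In this block the 6 ratios had adjusted p-values of 0.30 to 0.38 by an exact sign-flip test, whose smallest p is 0.0625. With 1 library left out, log2 differences of the ratios ran from 0.22 to 0.43 (Bax to Bcl2), 0.15 to 0.32 (Bax to Bcl2l1), 0.13 to 0.31 (Bax to Mcl1), 0.22 to 0.38 (Bak1 to Bcl2), 0.11 to 0.36 (Bak1 to Bcl2l1) and 0.19 to 0.36 (Bak1 to Mcl1). The farthest moves came without G799R library 1 (Bak1 to Bcl2l1 0.11, Bax to Bcl2l1 0.15), library 3 (Bax to Bcl2 0.43) and library 4 (Bax to Mcl1 0.13). In the alternatives 0 of the ratios passed, but in the block no ratio could pass, since its smallest p is above 0.05. Bbc3 and Pmaip1 had the lowest levels in wild type, depth in reads is unknown, and no counting interval can be given for them.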

Other observations

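Bcl2a1a, Bcl2a1b and Bcl2a1d encode A1, an anti-apoptotic BCL2 relative known from leukocytes and induced by NF-kappaB. They are near-identical copies, so reads may have been split between them and their single values are uncertain. Bcl2a1a was listed at 0, 0.419, 0.226, 0.333 and 0.411 FPKM in wild-type libraries 1 to 5 and at 1.31, 5.89, 1.73, 1.07 and 0.610 FPKM in G799R libraries 1 to 5. Bcl2a1d was at 0.127 to 0.787 FPKM in wild type and at 1.195, 7.76, 2.06, 1.01 and 1.01 FPKM in G799R. Both were called higher by limma (adjusted p = 0.0124 and 0.0253), and Bcl2a1b was not (adjusted p = 0.10). G799R library 2 was the highest for all 3 copies. The cytokine gene Tnf, another target of NF-kappaB, stood at 6.01 FPKM there, while its remaining 9 values ran from 0.177 to 0.669 FPKM. Of 15 macrophage markers 8 were called higher in G799R, where 40.5% of all tested genes were. The other 7, Adgre1 and Csf1r among them, were not called. The part of these markers was not tested.

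Bmf, a BH3-only gene, was at 1.38 to 3.48 FPKM in wild type and 3.31 to 5.61 FPKM in G799R (limma adjusted p = 0.0108). Bok, a pore-forming relative of Bax and Bak1, was at 1.64 to 3.91 FPKM in wild type and 2.39 to 6.90 FPKM in G799R, and was not called (adjusted p = 0.0863).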
